A study of Xenopus laevis with 4 samples.

Results

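The genes described here encode the proteins of the cytoplasmic ribosome in Xenopus laevis. Members were chosen by gene symbol from the RefSeq table of genome v10.1. All protein-coding genes were taken whose symbol starts with rpl or rps followed by a digit, together with rplp0, rplp1, rplp2 and rpsa, whereas kinases named rps6k and symbols starting rps19bp or rpl7l were left out. The rule found 135 of 34461 protein-coding genes on the 18 chromosomes, and it used no measured value. Of these, 77 encode proteins of the large subunit (rpl) and 58 proteins of the small subunit (rps and rpsa). Xenopus laevis is an allotetraploid frog with an L and an S subgenome, which hold 70 and 65 of the genes. The 135 genes carry 78 gene names, and 56 names are present as a pair of L and S homeologs. Sequences of promoters and proteins were not used here.

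DNA methylation was profiled in wild-type embryos at the 256-cell stage, 4.5 h post fertilization, before zygotic genome activation (ZGA). In MBD-seq, fragments of genomic DNA with methylated CpG are bound by a fusion protein that carries a methyl-CpG-binding domain (H6-GST-MBD), and are then sequenced. The group described is MBD capture, with 2 libraries that were each made from 250 pooled whole embryos, so that all cells of the embryo contribute to a value. The 2 Input libraries of the same stage, genomic DNA sequenced without capture, entered only through the peak calling of the study and were not analysed here.

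Ribosomal proteins assemble with ribosomal RNA into the small subunit, which decodes mRNA, and the large subunit, which forms the peptide bond. Their genes are among the most strongly transcribed genes of growing vertebrate cells, and they typically start within short CpG-rich promoters that lack DNA methylation. The introns of many ribosomal protein genes hold the genes of small nucleolar RNAs (snoRNAs), which guide modifications of ribosomal RNA. The Xenopus egg carries a large maternal store of ribosomes, and cleavage proceeds before the zygotic copies of these genes are transcribed.

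Replicate 1 had 17645240 tags and 131303 peaks, and replicate 2 had 23909019 tags and 222771 peaks. Replicate 2 was thus deeper, by 1.35-fold in tags and 1.70-fold in peaks, and the part of this difference in the values that follow was not tested. The labels give each library a batch of its own, so batch and replicate cannot be told apart. The lists hold positions of peaks and no height, so that a gene either had a peak or had none called in that library. With 1 group of 2 libraries no test between groups was possible, and each value is given per replicate and set beside the distance between replicates.

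A gene was scored by whether a peak overlapped its body or the 1 kb at either end by at least 1 bp. Ribosomal protein genes were short, with a median length of 6457 bp against 17283 bp for the other coding genes, and a longer gene meets more peaks. The comparison was therefore made with the other coding genes weighted, by classes of length, to the lengths of the ribosomal protein genes. Within a class the lengths were not matched further. In replicate 1, 33 of the 135 genes (24.4%) had a peak, where 54.8% of all coding genes and 30.8% of the length-weighted coding genes had one. In replicate 2, 72 genes (53.3%) had a peak, beside 68.7% of all coding genes and 47.3% of the length-weighted ones. The difference between ribosomal protein genes and genes of like length was thus -6.34 percentage points in replicate 1 and 6.06 points in replicate 2. Over the replicates, 38.9 ± 20.4% (SD, n = 2) of the genes had a peak, and the difference to genes of like length was -0.141 ± 8.77 points (SD, n = 2). The mean difference was smaller than the spread between replicates, and its direction was not the same in both. With 20 classes of all coding genes by length, the difference was -5.07 points in replicate 1 and 6.94 points in replicate 2. Both values were higher than those above, and the part of unequal lengths within classes in these differences was not tested.

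The excess in replicate 2 was not found with shorter lists of peaks, and it was smaller within gene bodies. It ran from 5.56 to 8.27 points with flanks of 2 kb, an overlap of at least 200 bp or other choices of genes. The lists were shortened by listing order, taken as a rank by inference, and the cause of these changes was not tested. When the list of replicate 2 was shortened to 134118 peaks, a number near that of replicate 1, 31.9% of the genes had a peak against 33.3% of genes of like length. The direction thus turned, with a difference of -1.41 points. With the first part of the list (109595 peaks), the values were 25.9% against 28.2%. Within gene bodies alone, 23 genes (17.0%) had a peak in replicate 1, beside 50% of all coding genes and 23.4% of genes of like length. In replicate 2 the bodies of 51 genes (37.8%) had a peak, beside 62.8% of all coding genes and 36.9% of genes of like length.

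A peak in each of the replicates was found at 26 genes (19.3%), compared to 50.1% of all coding genes and 24.1% of genes of like length. A further 7 genes (5.19%) had a peak in replicate 1 alone, beside 6.73% of genes of like length, and 46 genes (34.1%) in replicate 2 alone, beside 23.2%. In neither replicate was a peak found at 56 genes (41.5%), beside 26.6% of all coding genes and 46.0% of genes of like length. With the first part of each list, 8 genes were called in both replicates (5.93%, beside 12.3% of genes of like length). At 19 of the 26 genes, peaks of both replicates shared at least 1 base. This was 14.1% of the 135 genes, beside 19.3% of genes of like length. Within bodies alone, 17 genes (12.6%) had a peak in both replicates, beside 45.6% of all coding genes and 17.4% of genes of like length. The genes with a peak in both replicates made up 78.8% of those with a peak in replicate 1 and 36.1% of those in replicate 2. For genes of like length these shares were 78.1% and 50.9%. A gene with a peak in replicate 1 hence had a peak in replicate 2 about as often as genes of like length, whereas the larger set from replicate 2 was met less in replicate 1, a difference that was not tested.

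**Figure D1:**
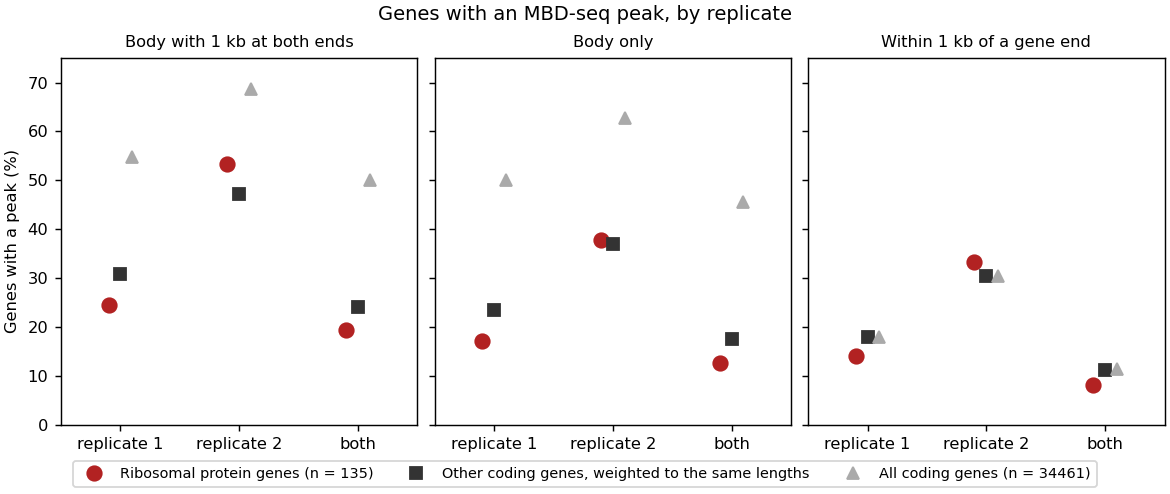
Share of genes with an MBD-seq peak in percent (vertical axis) in replicate 1, replicate 2 and both, for the body with 1 kb at both ends, the body only and the 1 kb around a gene end. Circles are the 135 ribosomal protein genes, squares the other coding genes weighted to the same lengths and triangles all 34461 coding genes. For the body with its flanks, circles lie below squares in replicate 1 (24.4% against 30.8%) and above them in replicate 2 (53.3% against 47.3%).

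Longer ribosomal protein genes had peaks more frequently, as did other coding genes, which rose from 19.5% in the shortest class to 55.3% in the longest in replicate 1 and from 32.5% to 74.0% in replicate 2. Among the 34 genes from 2294 to 4994 bp, 5 had a peak in replicate 1 and 10 in replicate 2. Among the 34 longest genes, from 8225 to 41359 bp, 16 had a peak in replicate 1 and 26 in replicate 2. In this longest class, 15 genes (44.1%) had a peak in both replicates, beside 49.4% of the other coding genes in the class. The class is wide, and lengths within it were not matched. These 15 genes make up most of the 26. In the class from 4994 to 6457 bp, the replicates moved apart, with 3 of 33 genes (9.09%) in replicate 1 against 25.0% of other genes in the class, and 18 of 33 (54.5%) in replicate 2 against 42.2%. The median length was 9275 bp for the 26 genes with a peak in both replicates and 5663 bp for the 56 genes with none.

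**Figure D2:**
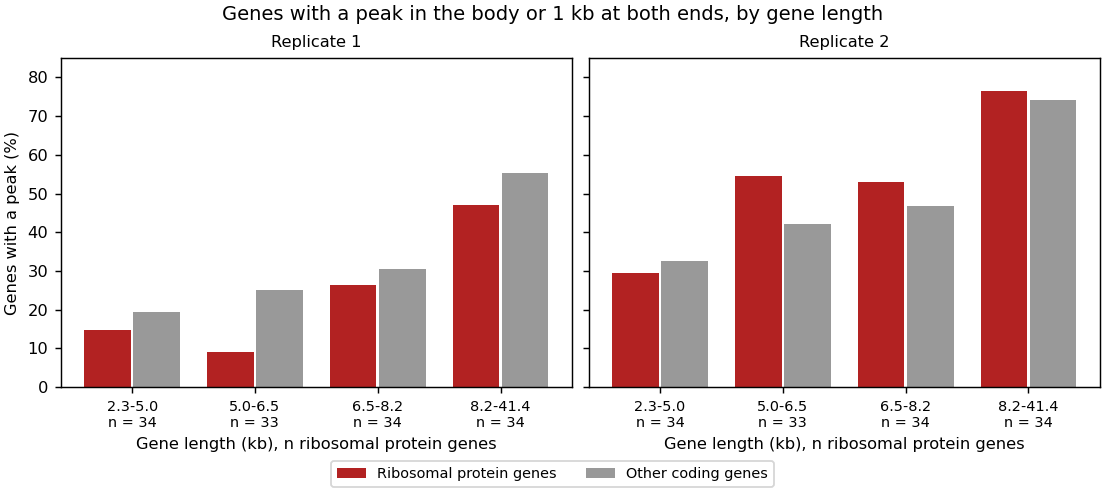
Share of genes with a peak in the body or the 1 kb at both ends in percent (vertical axis) by class of gene length in kb (horizontal axis), for the ribosomal protein genes (red bars) and the other coding genes of the class (grey bars), with 1 panel per replicate. Shares are highest in the longest class, where 47.1% of ribosomal protein genes had a peak in replicate 1 and 76.5% in replicate 2. Lengths within a class were not matched.

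Little sequence was in peaks. The 135 windows together span 1281760 bp, of which 18926 bp (1.48%) were in peaks of replicate 1 and 55091 bp (4.30%) in peaks of replicate 2, or 2.89 ± 2.00% (SD, n = 2). Replicate 2 covered 2.91 times the bases of replicate 1 in these windows and 1.86 times in the windows of all coding genes. As a mean per gene, 1.27% of the window was covered in replicate 1 beside 2.11% for genes of like length. In replicate 2 these means were 3.88% and 4.05%, so that the differences were -0.84 and -0.18 points. The windows held 40 peaks in replicate 1 and 105 in replicate 2. Most had the smallest common width of 501 bp, 87.5% in replicate 1 and 73.3% in replicate 2, compared to 69.3% and 63.2% of the peaks in windows of all coding genes. The widest were 795 bp and 1419 bp, so no peak of several kb was called at a ribosomal protein gene. In windows of all coding genes the widest were 5442 bp and 8619 bp, among 58062 and 99936 peaks. With so few peaks at ribosomal protein genes, a rare wide peak can be missing by number alone.

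The recurrence of single peaks was then compared with that over coding genes as a whole. Of the 40 peaks in replicate 1, 21 (52.5%) overlapped a peak of replicate 2, beside 60.9% over all coding windows. Of the 105 peaks in replicate 2, 22 (21.0%) overlapped a peak of replicate 1, beside 35.2%. Among peaks of 501 bp alone, the shares were 54.3% beside 54.5% in replicate 1 and 20.8% beside 27.5% in replicate 2. At equal width the shares thus lay side by side in replicate 1 and apart in replicate 2, and the difference was not tested.

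The 26 genes with a peak in both replicates comprise 17 large-subunit and 9 small-subunit genes, of which 24 are shown in the map of peaks. Among the large-subunit genes, rplp2.S carried the largest covered share of all 135 windows. It encodes P2, a stalk protein that helps to recruit elongation factors to the ribosome, and lies at 3730998 to 3738479 on chromosome 4S. Peaks of replicate 1 were at 3732607 to 3733107, within the gene, and at 3738670 to 3739170, beyond its upper end. In replicate 2, peaks were at 3732386 to 3733140, 3735791 to 3736291 and 3738726 to 3739226. Peaks covered 10.6% of the window in replicate 1 and 18.5% in replicate 2, with 946 bp in common. Both peaks of replicate 1 were thus met again, and the peak between them was found in replicate 2 alone. The homeolog rplp2.L, with 7486 bp of nearly the same length as the 7482 bp of rplp2.S, had no peak in either replicate, and its nearest peaks were 3185 bp and 2361 bp away.

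rpl36.S, a large-subunit gene at 82889759 to 82914533 on chromosome 1S, had 2 peaks in replicate 1 and 5 in replicate 2, the most in replicate 2. The peaks at 82893739 to 82894507 and 82905348 to 82905848 of replicate 1 were each overlapped in replicate 2, at 82893965 to 82894465 and 82905376 to 82905876. The other 3 peaks of replicate 2 were spread over the gene. With 24775 bp it is also long for this set, and its window holds another coding gene. rpl36.L, of 10813 bp, had no peak in replicate 1 and 1 in replicate 2.

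rpl5.S encodes a protein that carries 5S ribosomal RNA into the large subunit and, together with Rpl11, binds the p53 regulator Mdm2 under ribosomal stress. The gene lies at 83886785 to 83902043 on chromosome 4S and had 2 peaks in replicate 1 and 3 in replicate 2, all within the body. The peaks at 83895559 to 83896059 and 83895582 to 83896082 shared 478 bp, whereas the others did not overlap. rpl5.L had no peak in either replicate, with the nearest at 11343 bp and 12207 bp. The 2 homeologs differ in length, 15259 bp for rpl5.S and 8194 bp for rpl5.L.

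rpl21.L had 3 peaks in replicate 1 and 2 in replicate 2, and the peaks at 165116426 to 165116926 and 165116247 to 165116924 on chromosome 2L shared 499 bp. Both homeologs of rpl22, rps14 and rps7 had a peak in each replicate.

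In rpl23a.L and rpl35.L, whose proteins sit near the exit of the nascent peptide, single peaks lay inside the gene and shared 454 bp and 492 bp. The peaks of rpl32.L at 131295224 to 131295724 and 131295212 to 131295712 on chromosome 4L shared 489 bp. rpl27a.S and rpl29.S likewise held peaks in common within the body, over 497 bp and 495 bp. At rpl30.L the only peaks lay below its lower end, at 139598527 to 139599321 in replicate 1 and 139598601 to 139599357 in replicate 2 on chromosome 6L, and rpl22.L had a recurrent peak below its lower end as well. At rpl3l.L, a paralog of rpl3 that is known from striated muscle in mammals, the peaks lay 1094 bp and 1099 bp above the upper end by their midpoints. rpl9.L, rpl18.S and rpl22.S had peaks in each replicate that did not overlap.

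Among the 9 small-subunit genes, rps15.S at 89966124 to 89980067 on chromosome 1S had 1002 bp in peaks of replicate 1 and 1661 bp in peaks of replicate 2. rps15 encodes a protein near the decoding site. Peaks at 89977763 to 89978263 in replicate 1 and 89977400 to 89978292 in replicate 2 shared 501 bp, the whole of the peak in replicate 1. rps15.L, with a length of 2599 bp, had none. For rps7.L the peaks at 145967309 to 145967809 and 145967301 to 145967801 on chromosome 5L lay above the upper end, and the window holds another coding gene. The same holds for the windows of rps7.S, rpl22.L, rpl35.L and rpl36.S. No peak at these 5 genes overlapped another coding gene. rps7.S had a peak in both replicates, at different positions.

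rps14, whose human ortholog lies in the region deleted in the 5q- syndrome, had a peak in both replicates on each homeolog. In rps14.S the peaks at 15580671 to 15581171 and 15580665 to 15581165 on chromosome 3S shared 495 bp. In rps14.L the peaks of the replicates lay at opposite sides of the gene, at 26707835 to 26708335 and 26712512 to 26713012 on chromosome 3L. A call in both replicates hence did not always stand for the same place. rps4x.S and rps13.L had overlapping peaks, over 322 bp and 272 bp within the window, and rps6.S and the copy named rps9 without a suffix (on chromosome 7S) did not.

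**Figure D3:**
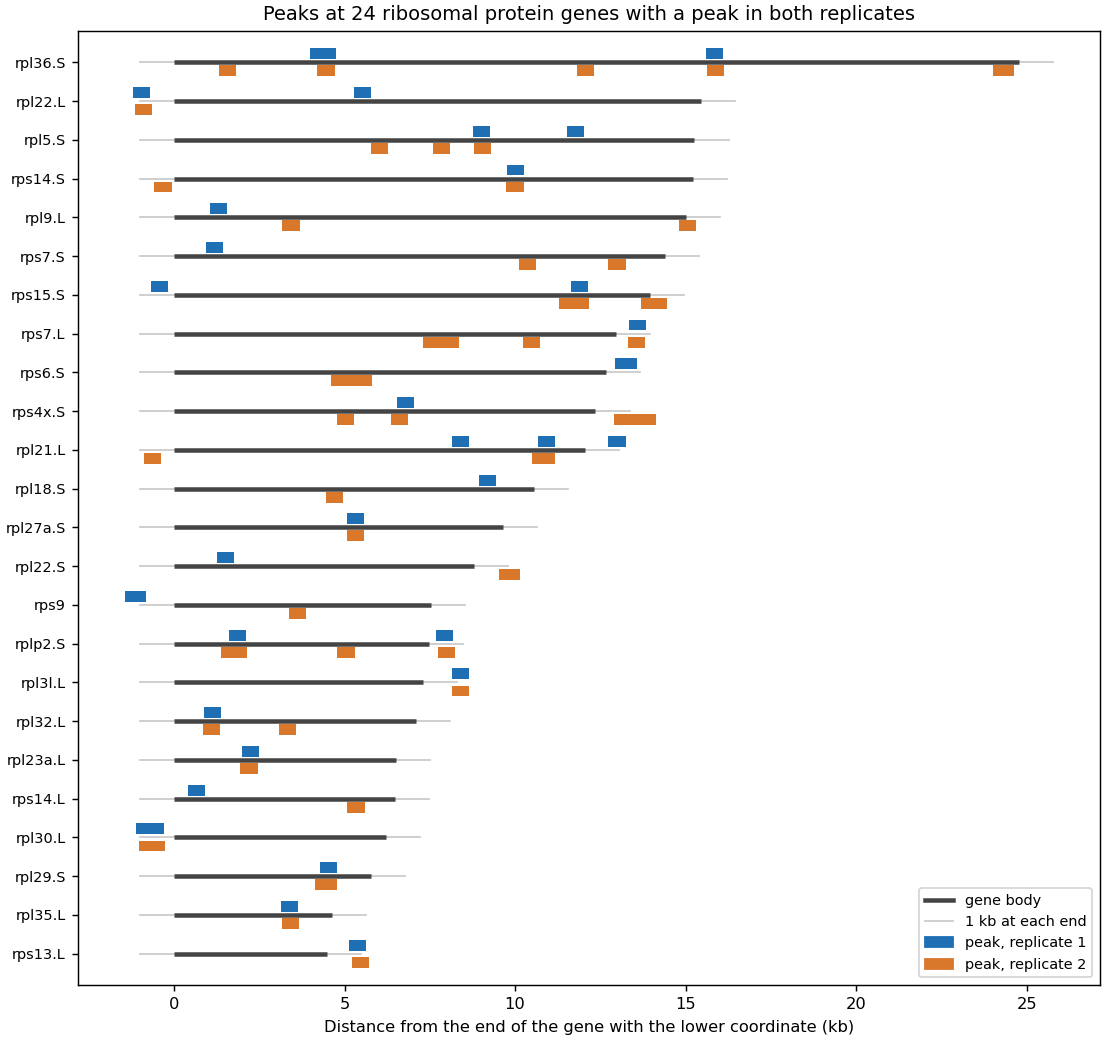
Peaks of replicate 1 (blue) and replicate 2 (orange) at 24 of the 26 ribosomal protein genes with a peak in both replicates, ordered by length, as distance in kb from the end of the gene with the lower coordinate (horizontal axis, to scale). Dark lines are gene bodies and pale lines the 1 kb at each end, and strand is not shown. Blue and orange marks share sequence at 17 of the 24 genes and lie apart in the others, such as rps14.L.

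Genes of the stalk, the subunit cores and ribosome disease or signalling were described whatever their values. Apart from rplp2.S, no stalk gene had a peak in replicate 1, like 102 of the 135 genes. rplp0.L, the gene of the stalk base, had none in either replicate, and its nearest peaks were 1761 bp and 1725 bp away. rplp0.S and rplp1.L each had 1 peak in replicate 2 alone. Among the core genes of the large subunit, rpl3.L, rpl10.L and rpl10.S had no peak, and rpl4.L had 1 peak in replicate 2 where rpl4.S had 1 in replicate 1. rpl11.L had 1 peak in replicate 2, and rpl11.S had none. rpl3.S, rplp1.S and rps2.S were not matched in the table and were not analysed here.

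In the small subunit, rps3.L and rps3.S, which encode a protein at the mRNA entry site, had no peak in either replicate, despite lengths of 10760 bp and 13127 bp. rps2.L and rps19.S had none either, and rps19.L had 1 peak in replicate 2. rps19 is the gene most often mutated in human Diamond-Blackfan anaemia. rps6 encodes the substrate of S6 kinase. rps6.S had peaks in both replicates and rps6.L none, with the nearest 11471 bp and 4267 bp away. rpsa.L, rpsa.S and rps27a.S each had 1 peak in replicate 2 alone, and rps27a.L, which like its homeolog encodes a fusion of ubiquitin and the ribosomal protein, had none. The longest gene, rps10.S (41359 bp), had 2 peaks in replicate 2 and none in replicate 1, and the shortest, rps27.S (2294 bp), had none.

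Some ribosomal protein genes lay far from any peak. The nearest peak was beyond 10 kb for 46 genes (34.1%) in replicate 1 and 16 genes (11.9%) in replicate 2, beside 32.4% and 14.9% of genes of like length. In both replicates this held for 13 genes (9.63%, beside 10.2%). rpl27.S, the farthest on the S subgenome in replicate 1 at 48733 bp, had a peak in its body in replicate 2. rpl39.L was the farthest in replicate 2, at 22861 bp, and was 23946 bp from a peak in replicate 1. For rps27.S the distance was 18532 bp in replicate 2 and 13713 bp in replicate 1. rpl39.L and rps27.S thus lay in peak-free sequence in both replicates, unlike rpl27.S.

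The study scored peaks within 1 kb of the transcription start site (TSS). The table gives no strand, so sequence within 1 kb of a gene end, on either side, was used for both ends, and a count at either end is an upper bound for the TSS. In replicate 1, 19 genes (14.1%) had a peak there, beside 17.9% of all coding genes and 17.9% of genes of like length. In replicate 2 there were 45 genes (33.3%), beside 30.5% and 30.3%. The same end had a peak in both replicates in 11 genes (8.15%), beside 11.3% of all coding genes and 11.2% of genes of like length. Among these genes were rpl21.L, rps13.L, rpl32.L, rplp2.S, rps7.L, rpl30.L, rpl22.L, rpl35.L and rpl3l.L. No gene had a peak at each end in both replicates, which is the lower bound, beside 0.525% of all coding genes. In replicate 2 alone, genes with a peak at each end included rpl21.L, rpl26.S and rps29.S. Neither end had a peak in either replicate in 84 genes (62.2%), near the 63.8% of all coding genes. With 500 bp on each side of an end, genes with a peak at the same end in both replicates included rplp2.S, rps7.L and rpl30.L. The 11 genes were 9 of the 70 L copies and 2 of the 65 S copies. By subunit, they were 9 of the 77 large-subunit genes and 2 of the 58 small-subunit genes. These splits rest on few genes, have no share of other coding genes beside them and were not tested.

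More genes had a peak in the 1 kb outside an end than in the 1 kb inside, 14 against 6 in replicate 1 and 36 against 18 in replicate 2. Genes of like length did so too, with 12.3% outside against 8.62% inside in replicate 1 and 21.5% against 15.4% in replicate 2. In the first 500 bp inside an end, 0.0674% of the bases were in peaks in replicate 1 beside 1.08% for genes of like length, and 1.53% beside 2.37% in replicate 2. From 500 to 1000 bp inside, the values were 0.608% beside 2.02% in replicate 1 and 1.63% beside 3.93% in replicate 2. From 1 to 2 kb inside, the genes were near genes of like length, with 2.06% beside 2.30% and 4.75% beside 4.38%. In the first 500 bp outside, coverage was 1.12% beside 1.81% in replicate 1 and 3.70% beside 3.33% in replicate 2. From 500 to 1000 bp outside, it was 3.05% beside 3.24% in replicate 1 and 7.42% beside 5.97% in replicate 2. The direction thus differed between the replicates in both of these steps. From 1 to 2 kb outside, the genes were again lower in both replicates, with 1.97% beside 3.00% and 4.91% beside 5.67%. From 2 to 5 kb inside, coverage was 1.10% beside 2.06% in replicate 1 and 3.92% beside 3.95% in replicate 2. Both steps of the outermost 1 kb of the gene thus lay below genes of like length in both replicates. So did the sequence from 1 to 2 kb outside and, by little in replicate 2, that from 2 to 5 kb inside.

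Counted as genes, 1 of 135 (0.741%) had a peak in the first 500 bp inside an end in replicate 1, beside 4.05% of all coding genes and 4.80% of genes of like length. In replicate 2, 7 genes (5.19%) had one, beside 7.79% and 9.09%. The difference to genes of like length was -4.06 points in replicate 1 and -3.91 points in replicate 2, or -3.98 ± 0.106 points (SD, n = 2). It lay in the same direction in each. These values rest on 1 and 7 genes, so their closeness is no measure of precision. No gene had such a peak in both replicates, where 2.08% of all coding genes and 2.39% of genes of like length did. The gene in replicate 1 was rps14.L, and those in replicate 2 were rpl9.L, rpl36.S, rps15.S, rpl8.L, rpl26.S, rps9.L and rpl19.L. This strip was chosen after the profile of coverage, low there in both replicates, had been seen. The shared direction follows in part from that choice, and the values are a description of these libraries. The mean difference shrank to -2.42 points with the first part of each list and to -2.40 points among genes with a homeolog on both subgenomes. For the first 1 kb inside an end, 6 genes (4.44%) had a peak in replicate 1, beside 7.83% of all coding genes and 8.62% of genes of like length. There were 18 genes (13.3%) in replicate 2, beside 14.4% and 15.4%. A peak in both replicates was found in 5 genes (3.70%), beside 4.65% and 4.98%, among them rpl21.L, rps14.L, rpl32.L and rpl35.L. Here the end could differ between the replicates, as it did in rps14.L.

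**Figure D4:**
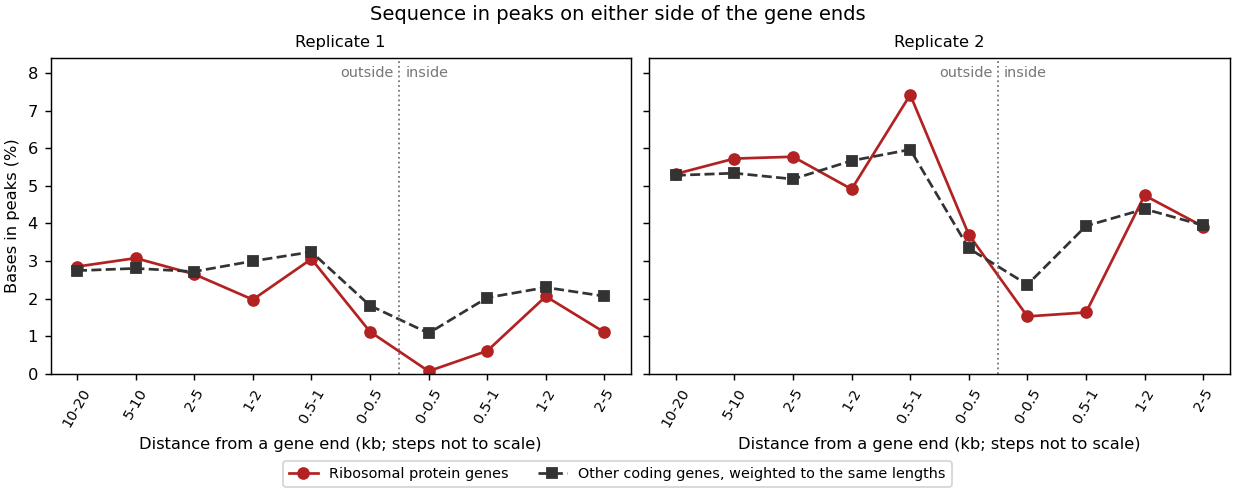
Bases in peaks in percent (vertical axis) by distance in kb from a gene end, outside the gene on the left and inside on the right (horizontal axis, steps not to scale), for the ribosomal protein genes (red circles) and the other coding genes weighted to the same lengths (dark squares), with both ends of a gene joined. In the first 500 bp inside, ribosomal protein genes were at 0.0674% in replicate 1 and 1.53% in replicate 2, below 1.08% and 2.37% in genes of like length.

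As a mean from 1 to 50 kb outside, the sequence around the genes was covered like that around other genes. There, 2.74% of the bases were in peaks of replicate 1 and 5.35% in peaks of replicate 2, beside 2.75% and 5.27% for genes of like length. Single steps differed, and the first, given above, was lower in both replicates. From 2000 to 5000 bp outside, the values were 2.65% beside 2.72% in replicate 1 and 5.77% beside 5.18% in replicate 2. From 5000 to 10000 bp, they were higher in both, with 3.08% beside 2.80% and 5.73% beside 5.34%. From 10000 to 20000 bp, they were higher by little, with 2.85% beside 2.74% and 5.32% beside 5.28%. The ribosomal protein genes had a mean of 3.13 other coding genes within 50 kb, beside 3.32.

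The genes of the L and S subgenomes and of both subunits were compared, each beside genes of its own lengths. Of 77 large-subunit genes, 19 (24.7%) had a peak in replicate 1, beside 30.2%, and 45 (58.4%) in replicate 2, beside 46.7%. Of 58 small-subunit genes, 14 (24.1%) had a peak in replicate 1, beside 33.4%, and 27 (46.6%) in replicate 2, beside 49.8%. Small-subunit genes were thus below genes of like length in each replicate, and large-subunit genes in replicate 1 only, while the difference between the subunits was not tested. On the L subgenome, 14 of 70 genes (20%) had a peak in replicate 1, beside 26.3%, and 39 (55.7%) in replicate 2, beside 42.0%. On the S subgenome, 19 of 65 genes (29.2%) had one in replicate 1, beside 35.5%, and 33 (50.8%) in replicate 2, beside 52.6%. The difference between the subgenomes was not tested.

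In the 56 homeolog pairs, the S copy was longer in 36. In replicate 1 both copies had a peak in 5 pairs, the L copy alone in 5, the S copy alone in 13 and neither in 33. In replicate 2 the counts were 14, 17, 14 and 11. Among 7708 other homeolog pairs, which were not weighted by length, 43.7% had a peak on both copies and 22.6% on neither in replicate 1, and 61.3% and 12.4% in replicate 2. S copies alone hence outnumbered L copies alone in replicate 1 and not in replicate 2. Among the other pairs, L alone and S alone are not reported here, so a split between the copies cannot be set beside them. With a peak in both replicates required, 4 pairs, among them rpl22, rps14 and rps7, had one on each copy. In rpl22.S, rps14.L and rps7.S the peaks of the replicates did not overlap. Such a call was on L alone in 4 pairs, on S alone in 9 pairs and on neither in 39 pairs (69.6%). Among the other pairs, 27.4% had it on neither. Homeologs share much sequence and are not independent, and reads that could not be placed on a single copy were not analysed here.

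snoRNA genes were found inside 46 of the 135 genes (34.1%), beside 0.333% of genes of like length. These 46 genes hold 123 of the 579 snoRNA genes of the table (21.2%). Among the 46 hosts, 12 (26.1%) had a peak in replicate 1, beside 29.1% of genes of like length, and 18 (39.1%) in replicate 2, beside 45.8%. Among the 89 genes without a snoRNA gene, 21 (23.6%) had a peak in replicate 1, beside 32.3%, and 54 (60.7%) in replicate 2, beside 48.7%. A peak in each replicate was found at 9 hosts (19.6%, beside 22.1%) and 17 of the others (19.1%, beside 25.7%). Hosts hence had the lower share in replicate 2, and not in replicate 1 or in both. A peak overlapped 1 of the 123 snoRNA genes in replicate 1, inside rps7.S, and 1 in replicate 2, inside rpl4.L, a gene with 6 snoRNA genes. Peaks covered 1.48% and 4.30% of the bases in the 135 windows, and overlaps at the other snoRNA genes of the table were not analysed here. These counts hence do not show that peaks avoid snoRNA genes.

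Other genes of translation were set beside the ribosomal proteins, by lists of symbols. The genes of the mitochondrial ribosome, which encode the proteins of a separate ribosome and are likewise short (median 7480 bp), had a peak in both replicates in 34 of 93 (36.6%), beside 32.4% of genes of like length. The difference was 4.61 points in replicate 1 and 3.72 points in replicate 2. The list for ribosome biogenesis, chosen by symbol, mostly holds genes that process ribosomal RNA and assemble the subunits, but its nol prefix also takes in nol4 and nol4l, which are not known for this. Of its 80 genes, 24 (30%) had a peak in both replicates, beside 40.8%, and the difference to genes of like length was -12.0 points in replicate 1 and -2.85 points in replicate 2. Of 74 genes with symbols of initiation factors, 38 (51.4%) had a peak in both, beside 44.7% of genes of like length. The 20 genes with symbols of elongation factors had 5 (25.0%, beside 34.3%) and the 27 aminoacyl-tRNA synthetases 14 (51.9%, beside 65.4%). The symbols of both factor lists also take in enzymes that modify the factors, such as eif2ak1, eef2k and eef1akmt1. The replicates differed in direction for the cytoplasmic ribosomal proteins and for the genes with symbols of elongation factors. The difference between the lists was not tested.

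**Figure D5:**
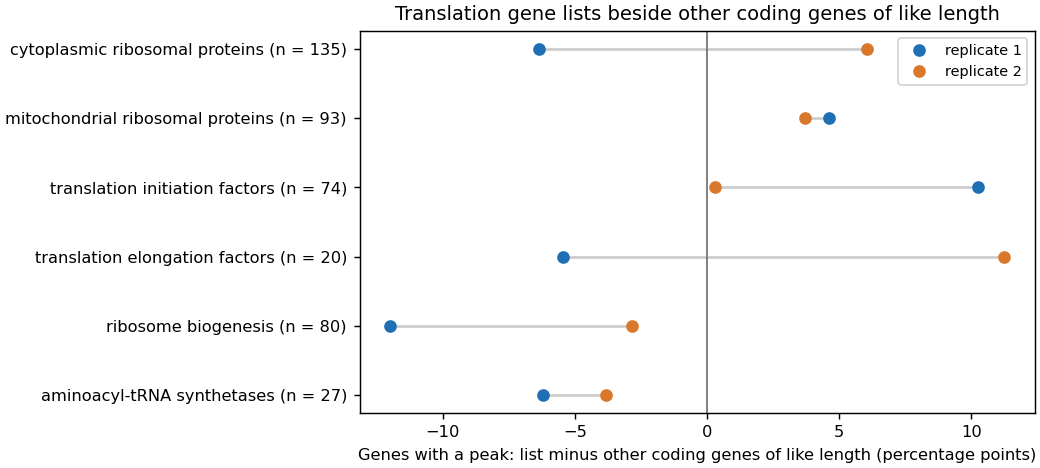
Share of genes with a peak in the body or 1 kb flanks minus that of other coding genes of like length, in percentage points (horizontal axis), for 6 gene lists of translation (rows, with the number of genes), with replicate 1 in blue and replicate 2 in orange. The cytoplasmic ribosomal proteins run from -6.34 in replicate 1 to 6.06 in replicate 2, whereas the mitochondrial ribosomal proteins are at 4.61 and 3.72.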

How the data were processed

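MBD-seq libraries of wild-type 256-cell embryos (2 MBD capture, 2 Input) were described by the peak positions of the 2 captured libraries. Per the methods of the study, the authors mapped read pairs with bowtie to genome v10.1, discarded improper pairs and called broad peaks with HOMER 4.11 in histone style, per replicate against Input. Per the file headers, HOMER scanned 500 bp windows, and joined those within 1000 bp, and a peak needed 4-fold more tags than Input, with a tag threshold of 12 in replicate 1 and 15 in replicate 2. The deposited score was 1 for all peaks and carries no measurement. Positions of the deposited peaks were taken to count starts from 0, and coordinates are given from 1. Fewer tags, few CpGs or reads without a unique place can leave methylated sequence without a peak, so a gene without a peak was not shown to be unmethylated.

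Genes came from the RefSeq table of the same version, which gives no strand. Planned windows at the TSS were replaced by both gene ends, and promoter sequence, planned as well, was not analysed here. A gene was called when a peak overlapped it by 1 bp or more. Other coding genes were weighted to the members' lengths in 10 classes (5 for smaller groups and the other lists). The weighting and overlap functions were tested on simulated peaks. The listing order of peaks, in runs that each follow the genome, was taken as a rank, which is an inference. Members, lists and comparisons were chosen with earlier results of these data known, and no test was run. Named genes were those with a peak in both replicates (up to 30), those with a peak within 1 kb of an end (up to 15, of which the 11 with the same end in both replicates were taken before the 4 with each end in replicate 2), fixed stalk, core, disease and signalling genes, the longest and shortest, and those farthest from a peak. Some genes that this rule names are not reported here. Genes listed for the strip inside the ends were chosen after their values were seen. Alternatives changed the flank, overlap, list length, replicates, members and comparison genes. Python 3.11.15, numpy 2.4.6, pandas 2.3.3 and matplotlib 3.10.9 were used.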

Additional observations from a re-analysis of the deposited data

How the results depend on the processing

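The lists of 2 libraries without peak heights limit every value, and the comparison with genes of like length had opposite directions in the replicates. The 26 genes with a peak in both replicates became 17 within bodies alone and 8 with the first part of each list, and 33 to 72 genes were found when 1 replicate was left out. The difference of -4.80 points to genes of like length reversed to 6.06 points without replicate 1 and was -6.34 points without replicate 2. Under the other alternatives it ran from -6.42 to -3.08 points, with -3.56 points for 20 classes of all coding genes by length. The 11 genes with a peak at the same end in both replicates became 4 (2.96%) with 500 bp and 20 (14.8%) with 2 kb. Shares of other coding genes for these windows are not reported here, so the counts cannot be set beside them. The count was 0 when each end was required, beside 0.525% of all coding genes. It was 19 to 45 when 1 replicate was left out, beside 17.9% to 30.5% of all coding genes. The share of window bases in peaks, 2.89%, ran from 1.24% to 4.30%. For the first 500 bp inside an end, alternatives added after seeing the data gave -2.42 points with the first part of each list, -3.62 with near-equal numbers of peaks, -3.86 without paralog symbols, -2.40 with homeolog pairs only and -3.14 with a strip of 1 kb, beside -3.98. With 1 replicate left out it was -4.06 to -3.91. With homeolog pairs only, 0.893% of the genes had a peak in this strip in replicate 1 and 4.46% in replicate 2. Beside them stood 3.57% and 6.58% of genes of like length. With all genes these shares were 0.741% and 5.19%, beside 4.80% and 9.09%. In this setting the share of the comparison genes thus moved more than that of the ribosomal protein genes. Several of the settings above use fewer peaks or genes, and the cause of the changes was not tested. No paired analysis was possible because the replicate numbers are shared only with the Input libraries, which were not analysed here.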
